A study of Rattus norvegicus with 9 samples.

Results

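A set of 10 genes of the ATF4 branch of the stress response and of serine synthesis was followed in blood CD4+ T cells of rats: Atf4, Atf5, Ddit3, Trib3, Chac1, Asns, Psat1, Phgdh, Shmt2 and Mthfd2. They were picked by name with earlier results of these data known, so counts over them are descriptions, and each level is the sum of the TPM (a level per transcript length, scaled to the same total in each library) of its transcripts. All 10 were found among 34738 gene units, and all 10 passed a filter, a mean level of 1 TPM or more over the 9 libraries, that left 14252 genes to test; Chac1, below 1 TPM in every normal library, passed it through the other 2 groups. The combination group was 3 libraries from CIA rats given a compound combination for 4 weeks, the model group 3 libraries from CIA rats, and the normal group 3 libraries from normal rats. All were SD rats of 8 to 10 weeks. CIA is taken here to mean collagen-induced arthritis, because the series is titled for rheumatoid arthritis; the labels name neither compound, describe no vehicle and give no sex. They do not say how CD4+ cells were selected or whether each library was 1 animal, so the p-values speak of variation among these libraries and no further.

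Aligned depth was 7.52 to 10.1 gigabases a library. The labelled cell type was checked on its markers. Cd3e, a subunit of the T cell receptor complex, had 323.0 to 416.0 TPM in combination, 227.7 to 404.9 TPM in model and 426.9 to 434.4 TPM in normal libraries, and Cd4 had 98.1 to 142.2 TPM in combination, 76.5 to 186.4 TPM in model and 202.5 to 234.6 TPM in normal libraries. Cd8a and Cd79a, of cytotoxic T cells and B cells, stayed at or below 11.2 TPM in all 9 libraries. In bulk RNA, fewer cells of a type and less RNA per cell cannot be told apart.

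ATF4 is a bZIP transcription factor that is made mainly through translation: when kinases phosphorylate the initiation factor eIF2 under amino acid shortage, misfolded protein or other stress, most translation falls while that of Atf4 mRNA rises. ATF4 then switches on genes for amino acid synthesis, amino acid uptake and tRNA charging, and with them the stress genes Ddit3, Trib3 and Chac1. Dividing T cells need serine, asparagine and mitochondrial one-carbon units for nucleotides, and the enzymes that make these are among ATF4 targets. The level of Atf4 mRNA is therefore no measure of ATF4 protein, and no protein was measured.

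The bases before the start site are shown for the 3 genes that passed the test in any comparison, since ATF4 binds a known element in the promoters of several targets. The element was searched as TGATGNAA on both strands (TTNCATCA on the other strand) in the 300 bases from 250 before to 50 after each start, from RefSeq with build GRCr8. It was found in 1332 of 33469 such windows (3.98%) and in 2 of the 10 genes, Trib3 and Chac1. Its stricter form TGATGCAA, which the first motif includes, was in 266 windows (0.795%) and here in Chac1 alone. The 250 bases before the start are printed 5′ to 3′, with the match in capitals and the rest in lower case.
Trib3, chr3:161275534-161275783, minus strand: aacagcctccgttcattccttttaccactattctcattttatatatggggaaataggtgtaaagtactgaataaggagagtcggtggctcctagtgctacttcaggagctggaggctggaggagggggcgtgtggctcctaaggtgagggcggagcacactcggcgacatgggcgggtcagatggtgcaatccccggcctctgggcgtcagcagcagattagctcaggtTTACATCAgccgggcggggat
Chac1, chr3:126795881-126796130, plus strand: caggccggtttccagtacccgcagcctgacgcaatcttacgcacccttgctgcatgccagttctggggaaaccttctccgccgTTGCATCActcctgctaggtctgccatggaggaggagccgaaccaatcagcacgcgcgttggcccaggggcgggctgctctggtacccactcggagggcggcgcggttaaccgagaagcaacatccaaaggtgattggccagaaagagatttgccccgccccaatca
Phgdh, chr2:188624790-188625039, minus strand: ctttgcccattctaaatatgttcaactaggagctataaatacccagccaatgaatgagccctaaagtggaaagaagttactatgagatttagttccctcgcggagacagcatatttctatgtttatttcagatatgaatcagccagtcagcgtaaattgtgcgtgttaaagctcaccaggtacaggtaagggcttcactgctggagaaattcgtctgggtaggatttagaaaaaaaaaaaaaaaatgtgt
Counted from the start, the Trib3 match covers positions -21 to -14 and the Chac1 match positions -167 to -160. Phgdh had no match in its window, which says only that these letters are not there. The first annotated exon of Phgdh in rn6 had almost no coverage, and whether the printed start is the one used in these cells was not tested. A match describes letters and was not tested as a binding site.

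In model against normal libraries, 2 of the 10 genes rose, Trib3 and Chac1, and none fell, by limma on log2(TPM + 1) at an adjusted p under 0.05 (Benjamini-Hochberg over all 14252 genes). Of all genes tested, 4.01% passed, 2.32% as rises and 1.69% as falls. The groups did not overlap for 7 of the 10 genes, each higher in model libraries. Of all genes, 32.7% did not overlap: 18.6% were higher and 14.1% lower in model libraries. The median log2 fold change of the 10 was 0.81, and that of all genes was -0.0052. In combination against model libraries, Trib3 fell and no other of the 10 passed (all genes: 4.15% passed, 1.99% fell, 2.16% rose). Here 4 genes were lower in every combination library than in every model library (Atf4, Ddit3, Trib3 and Shmt2) and Phgdh was higher. Of all genes, 26.7% did not overlap, 13% lower and 13.7% higher. The medians were -0.29 for the 10 and 0.029 for all genes. In combination against normal libraries, Chac1 and Phgdh rose and none fell (all genes: 3.62% passed, 2.02% rose, 1.6% fell). Trib3, Chac1, Asns, Psat1 and Phgdh were higher without overlap, and Atf4 lower. Of all genes, 35.5% did not overlap, 17.7% higher and 17.8% lower. The medians were 0.54 for the 10 and 0.041 for all genes. The comparisons share libraries, so they are not independent of each other.

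**Figure D1:**
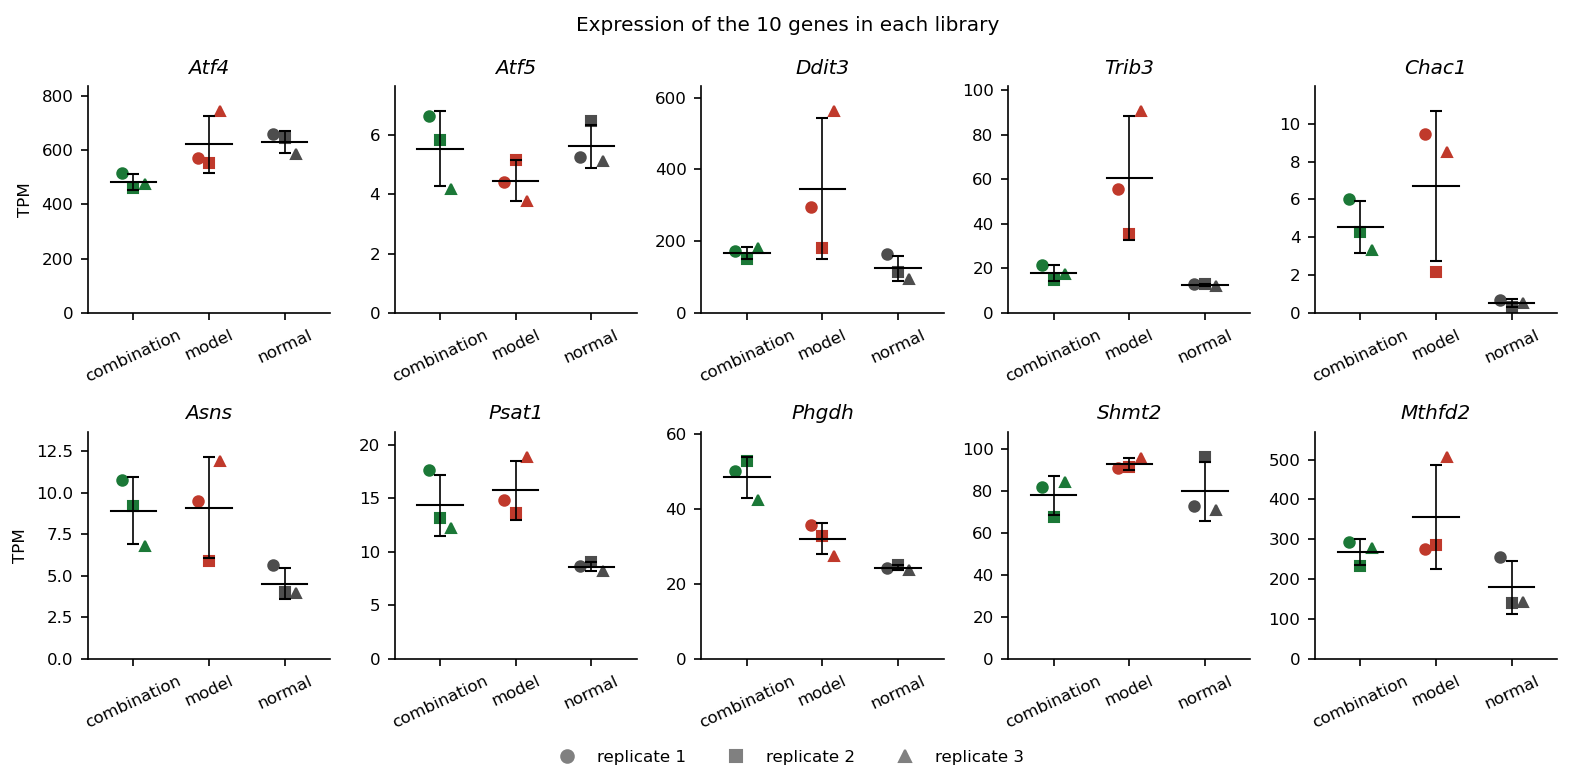
TPM of each of the 10 genes (vertical axes, linear from 0) in the 3 combination, 3 model and 3 normal libraries. Symbols are libraries, the horizontal line is the group mean and the bar is ± 1 SD (n = 3). Trib3 stands at 35.6 to 90.5 TPM in model libraries and at 21.6 TPM or less in the other 6, while Chac1 is below 1 TPM only in normal libraries.

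**Figure D2:**
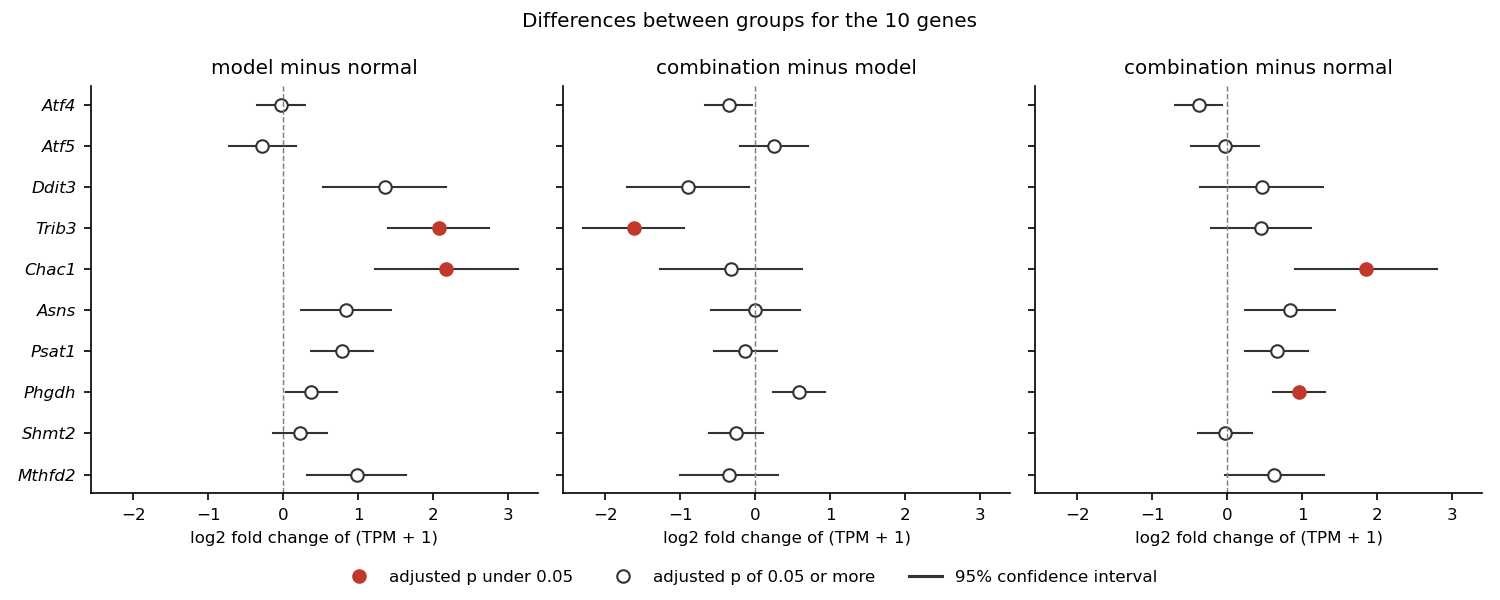
Log2 fold change of (TPM + 1) for each gene in the 3 comparisons, with the 95% confidence interval from limma. Filled points have an adjusted p under 0.05: Trib3 and Chac1 in model minus normal, Trib3 in combination minus model, and Chac1 and Phgdh in combination minus normal.

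Among the transcription factors, Atf4 was by far the most abundant, and it did not pass in any comparison. It had 516.6, 459.1 and 474.5 TPM in combination replicates 1, 2 and 3, 569.6, 553.2 and 743.2 TPM in the model replicates and 661.1, 643.5 and 584.3 TPM in the normal replicates. Every combination library lay below the other 6, while model and normal libraries overlapped. The log2 fold change was -0.35 ± 0.14 (SE) in combination minus model (limma, adjusted p = 0.154) and -0.38 ± 0.14 in combination minus normal (limma, adjusted p = 0.134). With array weights alone among the settings tried, combination minus normal passed as a fall (-0.41, limma, adjusted p = 0.0216). The log2 fold change of Atf4 was -0.03 ± 0.14 in model minus normal (limma, adjusted p = 0.919), with a 95% interval of -0.34 to 0.29. Both annotated transcripts lie on chr7:121480723-121482772, plus strand (rn6). They share an assembled locus with Mief1, a factor of mitochondrial fission, which had 17.1 to 47.1 TPM, and the assembled transcripts of that locus without a gene name of their own added 0.218 to 36.2 TPM that were not counted to either gene.

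Atf5, a relative of ATF4 with a similar translational control, was low. It had 6.63, 5.81 and 4.16 TPM in the combination replicates, 4.42, 5.16 and 3.77 TPM in the model replicates and 5.26, 6.46 and 5.12 TPM in the normal replicates (chr1:100808241-100810522, minus strand). The 3 groups overlapped throughout, and the adjusted p from limma was 0.393 or more in each comparison.

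Ddit3 encodes CHOP, a bZIP factor induced in the same stress response and tied to cell death. Its TPM was 173.7, 149.4 and 179.6 in the combination replicates, 296.4, 181.5 and 561.9 in the model replicates and 162.9, 114.8 and 95.2 in the normal replicates (chr7:70580198-70585084, plus strand). The model libraries were all above the other 6, but model replicate 2 only just, while model replicate 3 was the highest by a wide margin. The differences missed the threshold: 1.35 ± 0.36 in model minus normal (limma, adjusted p = 0.0663) and -0.90 ± 0.36 in combination minus model (limma, adjusted p = 0.161). Without model replicate 2 both passed (1.74, limma, adjusted p = 0.0103, and -1.28, limma, adjusted p = 0.0411), and without model replicate 3 they were 0.93 (limma, adjusted p = 0.142) and -0.47 (limma, adjusted p = 0.366). One reference transcript of 925 bases carried most of it, with means of 111.5 TPM in combination, 290.8 TPM in model and 71.0 TPM in normal libraries. A longer assembled transcript of the locus averaged 39.5 TPM in combination, 28.8 TPM in model and 37.6 TPM in normal libraries. Mars, a tRNA synthetase gene on the opposite strand, overlaps Ddit3 and reached 47.4 TPM; the labels do not say that the libraries kept strand, so reads of the overlap cannot be told apart.

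Trib3 encodes a pseudokinase that binds AKT and ATF4 and is both a target and a feedback inhibitor of the response. It had 21.6, 14.7 and 17.3 TPM in the combination replicates, 55.5, 35.6 and 90.5 TPM in the model replicates and 12.9, 12.8 and 12.2 TPM in the normal replicates (chr3:147813473-147819571, minus strand). No pair of groups overlapped, and the order was model, combination, normal. The model mean of 60.5 ± 27.8 TPM was 4.79 times the normal mean of 12.6 ± 0.361 TPM (SD, n = 3 each), and Trib3 rose by 2.07 ± 0.30 (log2, SE) in model libraries (limma, adjusted p = 0.0183). The combination mean of 17.9 ± 3.47 TPM was 0.295 of the model mean, and Trib3 fell by 1.62 ± 0.30 (log2, SE; limma, adjusted p = 0.0328). In combination minus normal the difference of 0.45 did not pass (limma, adjusted p = 0.375). The rise against normal lost its call without normal replicate 1, 2 or 3 (adjusted p = 0.055, 0.0761 and 0.0688) and with only the 2 groups compared (limma, adjusted p = 0.0566). The fall against model held without model replicate 2 (adjusted p = 0.0126) and lost its call without any other library (adjusted p = 0.0511 to 0.0994), with changes of -1.76 to -1.29. That call was also lost with no filter on low values, only the 2 groups compared or a replicate block (limma, adjusted p = 0.05785, 0.09452 and 0.07015).

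Chac1 encodes an enzyme that degrades glutathione in the cytosol and is a target of the ATF4 branch. It had 6.03, 4.27 and 3.32 TPM in the combination replicates, 9.45, 2.17 and 8.50 TPM in the model replicates and 0.708, 0.298 and 0.532 TPM in the normal replicates (chr3:111160205-111163425, plus strand). All CIA libraries, treated or not, were above all normal libraries, and combination and model libraries overlapped. Chac1 rose by 2.18 ± 0.42 (log2, SE) in model against normal (limma, adjusted p = 0.0314) and by 1.85 ± 0.42 in combination against normal (limma, adjusted p = 0.0488). Combination minus model was -0.32, with a 95% interval of -1.27 to 0.63 (limma, adjusted p = 0.672). Because the normal level is below the pseudocount of 1, the sizes depend on it: with 0.1 they were 3.28 and 2.94, and with 5 they were 1.02 and 0.78, the last with an adjusted p of 0.0887. With no filter on low values both calls were lost (limma, adjusted p = 0.0804 in model minus normal and 0.0887 in combination minus normal), as they were with reference transcripts only (limma, adjusted p = 0.0505 and 0.0823 in the same order). A replicate block lost both as well (limma, adjusted p = 0.0532 and 0.0771 in the same order). With only the 2 groups compared the model call was lost (limma, adjusted p = 0.0771) and the combination call held (limma, adjusted p = 0.0134). The model call was lost without combination replicate 2, model replicate 1 or 3, or any normal library (adjusted p = 0.0555 to 0.116), and the combination call without any combination or normal library or model replicate 3 (adjusted p = 0.0502 to 0.155).

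**Figure D3:**
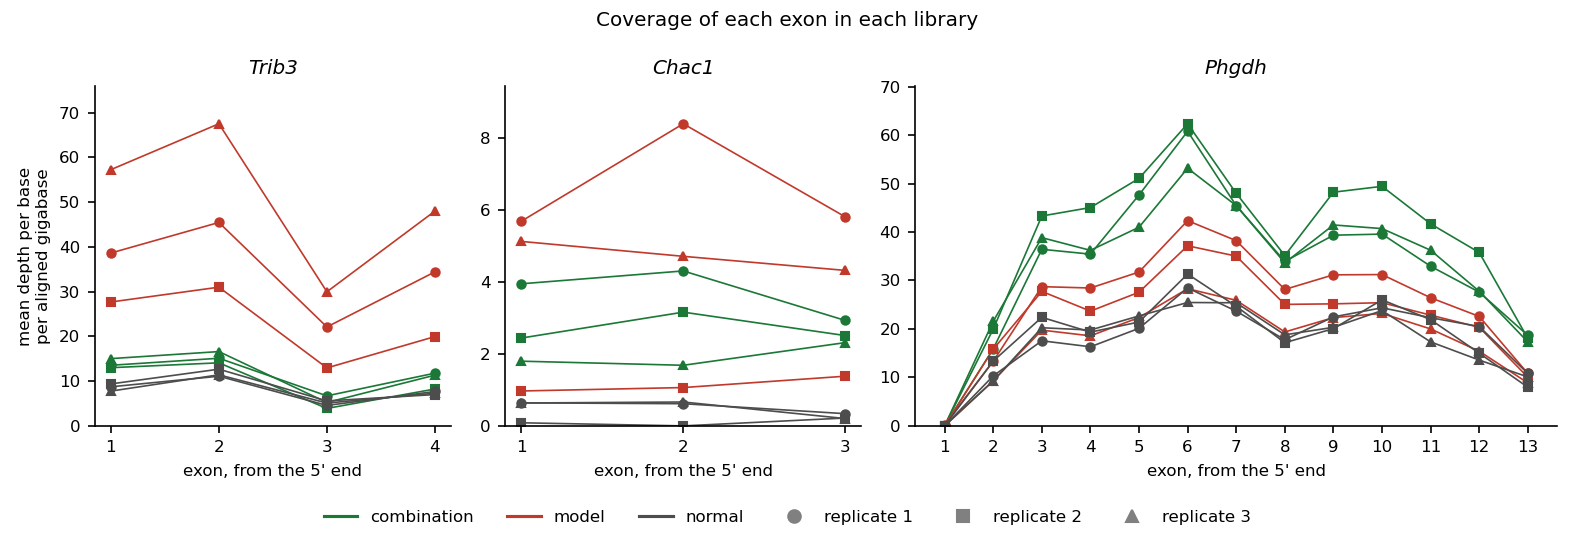
Mean read depth per base of each exon of Trib3, Chac1 and Phgdh, divided by the aligned gigabases of the library (vertical axes, linear), against exon number from the 5′ end. Each line is a library. Model lines are highest across all 4 Trib3 exons, combination lines are highest across exons 2 to 13 of Phgdh, and for Chac1 model replicate 2 runs below the combination lines.

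The differences that passed ran along these transcripts, apart from the first exon of Phgdh. For Trib3, all 4 exons were higher in every model than in every normal library, with ratios of mean depth of 4.09 to 4.78, and all 4 were lower in every combination than in every model library, at 0.244 to 0.336 of the model depth. All 3 Chac1 exons were higher without overlap in model (ratios 8.65 to 15.1) and in combination libraries (ratios 6.01 to 10.2) than in normal libraries. Of the 13 Phgdh exons, 12 were higher in every combination library than in every model library (ratios 1.40 to 1.82) and every normal library (ratios 1.74 to 2.17). The first exon of Phgdh, of 41 bases, had almost no coverage. Differences that did not pass were less even along the exons. In model against normal, 2 of the 13 Phgdh exons were higher without overlap (ratios 1.03 to 1.35). In combination against normal, 3 of the 4 Trib3 exons were (ratios 1.04 to 1.61). Exons of a transcript share reads and libraries, so they do not count as replicates.

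Asns makes asparagine from aspartate and glutamine and is the textbook target of ATF4. It had 10.7, 9.20 and 6.79 TPM in the combination replicates, 9.49, 5.87 and 11.9 TPM in the model replicates and 5.62, 4.01 and 3.94 TPM in the normal replicates (chr4:33743364-33761163, minus strand). Both CIA groups lay above normal without overlap, model replicate 2 only just. The means of 8.91 ± 1.99 TPM in combination, 9.09 ± 3.04 TPM in model and 4.52 ± 0.948 TPM in normal libraries gave differences of 0.84 ± 0.27 in both model minus normal (limma, adjusted p = 0.0969) and combination minus normal (limma, adjusted p = 0.0987), which missed the threshold. Most of the Asns level lay in an assembled transcript, and with reference transcripts only these differences were 0.43 (limma, adjusted p = 0.341) and 0.42 (limma, adjusted p = 0.376). Without model replicate 2 both passed (1.09, limma, adjusted p = 0.018, and 0.84, limma, adjusted p = 0.0434). Combination minus model was 0.00, with a 95% interval of -0.60 to 0.60.

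Phgdh, Psat1 and Psph are the 3 successive enzymes that make serine from a glycolytic intermediate. Phgdh, the first, had 50.3, 52.8 and 42.5 TPM in the combination replicates, 35.9, 32.9 and 27.6 TPM in the model replicates and 24.3, 25.2 and 23.7 TPM in the normal replicates (chr2:200484246-200513564, minus strand). The groups stood in the order combination, model, normal without any overlap, a different order from that of Trib3. Phgdh rose by 0.96 ± 0.15 (log2, SE) in combination against normal libraries (limma, adjusted p = 0.0269). Combination minus model was 0.58 ± 0.15 (limma, adjusted p = 0.0614) and model minus normal 0.37 ± 0.15 (limma, adjusted p = 0.158), which missed the threshold, though the first passed with FPKM (adjusted p = 0.0395) and in 3 other settings. The call against normal was lost without combination replicate 1 or 2 (adjusted p = 0.0822 and 0.0983), without normal replicate 1, 2 or 3 (adjusted p = 0.0962, 0.099 and 0.07), with reference transcripts only (adjusted p = 0.0664) and with a replicate block (adjusted p = 0.0601). Its reference transcript averaged 28.7 TPM in combination, 21.8 TPM in model and 14.0 TPM in normal libraries. Its assembled transcript averaged 19.8 TPM in combination, 10.3 TPM in model and 10.4 TPM in normal libraries.

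Psat1, the transaminase of the second step, had 17.6, 13.2 and 12.2 TPM in the combination replicates, 14.8, 13.6 and 18.9 TPM in the model replicates and 8.64, 9.01 and 8.24 TPM in the normal replicates (chr1:233124092-233145941, minus strand). Normal libraries lay close together and below the other 6, and combination and model libraries overlapped. The difference was 0.79 ± 0.19 in model minus normal (limma, adjusted p = 0.05001, just over the threshold) and 0.66 in combination minus normal (limma, adjusted p = 0.0755). The first passed in 7 of 13 other settings, among them FPKM (adjusted p = 0.0211) and median-ratio scaling (adjusted p = 0.0253), and without combination replicate 1 (adjusted p = 0.0493), combination replicate 3 (adjusted p = 0.0495) or model replicate 2 (adjusted p = 0.0198). The second passed in 4 of the 13, FPKM among them (adjusted p = 0.0328). Leaving out model replicate 2 also took it past the threshold (adjusted p = 0.0499). Psph, the phosphatase of the third step and not one of the 10, had 9.17, 9.49 and 10.7 TPM in the combination replicates, 9.25, 8.80 and 7.64 TPM in the model replicates and 8.54, 6.98 and 6.29 TPM in the normal replicates.

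Shmt2 and Mthfd2 are mitochondrial enzymes that pass a carbon unit from serine to folate and oxidise it. Shmt2 had 81.9, 67.3 and 84.2 TPM in the combination replicates, 91.0, 91.3 and 95.8 TPM in the model replicates and 72.6, 96.0 and 70.9 TPM in the normal replicates (chr7:70824715-70829815, minus strand). Combination libraries lay below model libraries without overlap, but no difference passed (limma, adjusted p = 0.342 or more in each comparison). Its TPM was spread over 1 reference and 14 assembled transcripts.

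Mthfd2 had 293.7, 232.2 and 279.0 TPM in the combination replicates, 275.6, 284.4 and 506.0 TPM in the model replicates and 255.6, 140.1 and 142.8 TPM in the normal replicates (chr4:115004448-115015965, minus strand). Model libraries were above normal libraries without overlap, and the difference of 0.98 ± 0.29 missed the threshold (limma, adjusted p = 0.0845). Part of this level came from 2 assembled transcripts that span 66.5 and 67.4 kb. Together they had 31.0 TPM in combination replicate 3, 98.4 and 105.6 TPM in model replicates 2 and 3, and 0 in the other 6 libraries. Without them Mthfd2 averaged 258.0 ± 32.0 TPM in combination, 287.3 ± 107.6 TPM in model and 179.5 ± 65.9 TPM in normal libraries (SD, n = 3 each), and the model and normal libraries overlapped.

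**Figure D4:**
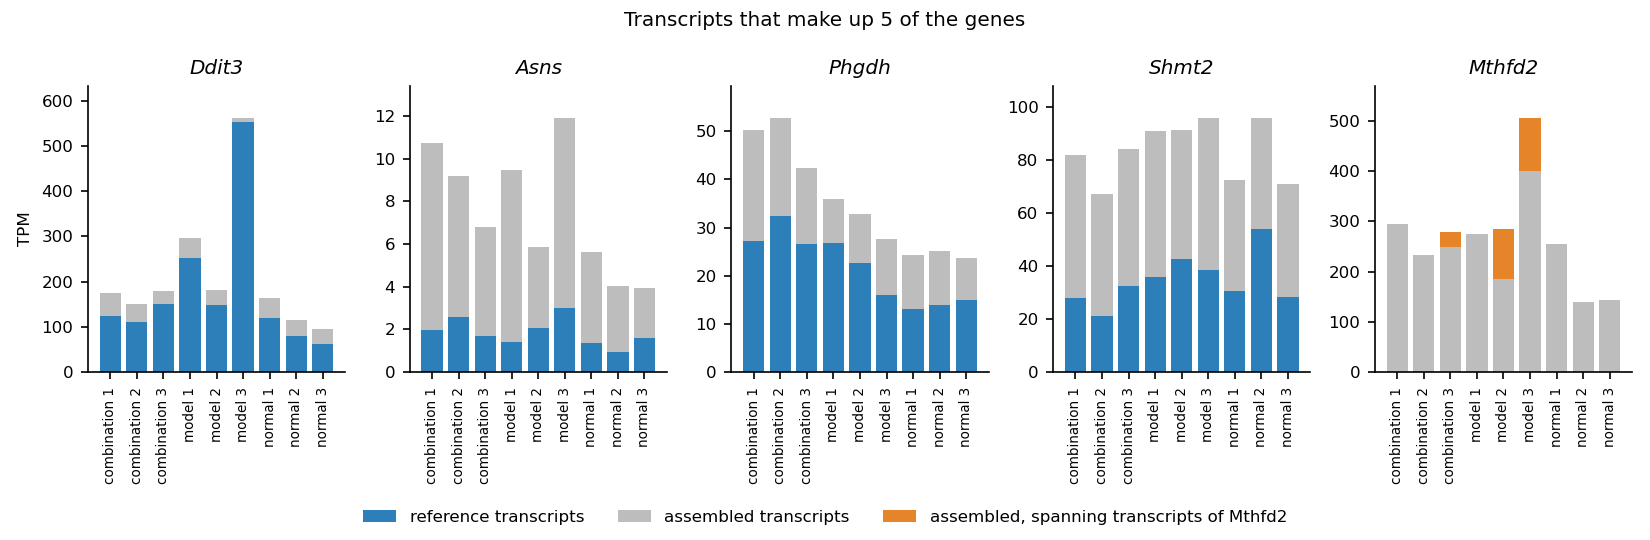
TPM of 5 genes in each library (linear axes from 0), stacked by kind of transcript: reference, assembled, and for Mthfd2 the 2 assembled transcripts that span 66.5 and 67.4 kb. The reference part of Ddit3 is tallest in model replicate 3, most of Asns and nearly all of Mthfd2 lie in assembled transcripts, and the spanning part appears in combination replicate 3 and model replicates 2 and 3.

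Some libraries stood at an extreme for many of the 10 genes, and how often they did so over all genes was not counted. Model replicate 3 was the highest of all 9 libraries for 6 of them, and model replicate 2 was the lowest of its group for 6. Combination replicate 1 was the highest of its group for 7 genes and normal replicate 3 the lowest of its group for 8.

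Other genes of the pathway were read from 7 lists, by counts past the same threshold. Over the other settings tried, each list count above 0 also came to 0 at least once. Counts at an unadjusted p under 0.05 are given without the share of all genes, which was not computed. That share was not small, since adjustment took the limma p of Phgdh in model minus normal only from 0.0352 to 0.158. For Atf4 the limma p went from 0.0324 to 0.154 in combination minus model and from 0.0231 to 0.134 in combination minus normal. Such counts are therefore no sign of enrichment. With limma, 0 of the 15 tested genes of eIF2 control passed in model against normal (4 at an unadjusted p under 0.05) and 0 in combination against normal (6 at an unadjusted p under 0.05). In combination against model, 2 of the 15 rose and 1 fell. The riser Eif2ak3 (PERK, the eIF2 kinase of the endoplasmic reticulum) had 38.5, 33.7 and 27.0 TPM in the combination replicates, 16.7, 18.3 and 17.6 TPM in the model replicates and 20.4, 23.4 and 21.6 TPM in the normal replicates. It rose by 0.86 ± 0.16 (limma, adjusted p = 0.0331). Eif2ak4 (GCN2, the kinase that senses uncharged tRNA) rose by 0.90 at a low level, 4.91 TPM on average in combination and 2.16 TPM in model libraries (limma, adjusted p = 0.046). Eif2b1, a subunit of the exchange factor that recharges eIF2, fell by 0.72, with means of 21.9 TPM in combination and 36.9 TPM in model libraries (limma, adjusted p = 0.0469). The median log2 fold change of the list was 0.03 in model minus normal, 0.03 in combination minus model and 0.09 in combination minus normal, and the medians of the other lists are given in this order of comparisons.

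Of 11 tested bZIP partners and relatives of ATF4, 1 passed, Jdp2, an AP-1 repressor, in combination minus normal (1.70, limma, adjusted p = 0.0402), and 0 passed in model minus normal and combination minus model (3 and 4 at an unadjusted p under 0.05); the list medians were 0.63, 0.01 and 0.75. With limma, 0 of 10 tested other stress targets passed in any comparison (6, 1 and 1 at an unadjusted p under 0.05), with medians of 0.81, -0.28 and 0.17. The lowest p among them belonged in model minus normal to Vegfa, a growth factor of blood vessels, at 1.64 (limma, adjusted p = 0.0632), and in combination minus normal to Sesn2, an inhibitor of mTORC1, at 1.04 (limma, adjusted p = 0.0811). Of 16 tested enzymes of amino acid synthesis outside the 10, Ass1, of arginine synthesis, rose in combination libraries, with a mean of 5.11 ± 3.03 TPM, against 0.307 ± 0.306 TPM in normal libraries (SD, n = 3 each; log2 fold change 2.10, limma, adjusted p = 0.0478). Ass1, listed at 0 in normal replicate 2, and Jdp2 averaged below the pseudocount of 1 in normal libraries and passed the filter through the groups where they were higher, so the sizes of their differences depend on the pseudocount. With limma, 0 enzymes passed in model minus normal and in combination minus model (4 and 4 at an unadjusted p under 0.05). The medians of the list were 0.05, -0.08 and -0.16.

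Of 24 folate one-carbon genes tested with limma, 0 passed in model minus normal (10 at an unadjusted p under 0.05), 1 rose and 1 fell in combination minus model, and 2 rose and 4 fell in combination minus normal. Fpgs, which adds the glutamate tail that keeps folate in the cell, had 2.55, 2.42 and 2.43 TPM in the combination replicates, 3.49, 6.06 and 3.65 TPM in the model replicates and 6.74, 7.09 and 7.07 TPM in the normal replicates. It fell by 1.20 against normal (limma, adjusted p = 0.029), and Slc19a1, the reduced folate carrier, fell by 1.10 (limma, adjusted p = 0.0426). Ahcy, which clears S-adenosylhomocysteine, fell by 0.91 against normal (limma, adjusted p = 0.0293) and by 0.68 against model libraries (limma, adjusted p = 0.0469). Dld, a subunit shared by the glycine cleavage system and other dehydrogenases, rose by 0.83 and 0.89 in the same comparisons (limma, adjusted p = 0.0388 and 0.0329). The list medians were -0.20, -0.07 and -0.02.

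Of 10 tested amino acid transporters, 3 rose in model against normal. With limma, 0 passed in combination minus model and in combination minus normal (4 and 6 at an unadjusted p under 0.05). Slc7a5, the large neutral amino acid carrier, had 126.4, 93.3 and 91.0 TPM in the combination replicates, 230.9, 144.1 and 434.9 TPM in the model replicates and 68.0, 38.6 and 40.3 TPM in the normal replicates, and rose by 2.34 in model libraries (limma, adjusted p = 0.024). Of 20 cytosolic tRNA synthetases, 4 rose in model and 5 in combination against normal, none fell, and with limma 0 passed in combination against model (3 at an unadjusted p under 0.05). Cars, the cysteine enzyme, rose by 2.46 and 2.63 in these 2 comparisons (limma, adjusted p = 0.0248 in both). The list medians were 0.67, -0.22 and 0.58 for transporters and 0.39, -0.0045 and 0.73 for synthetases.

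**Figure D5:**
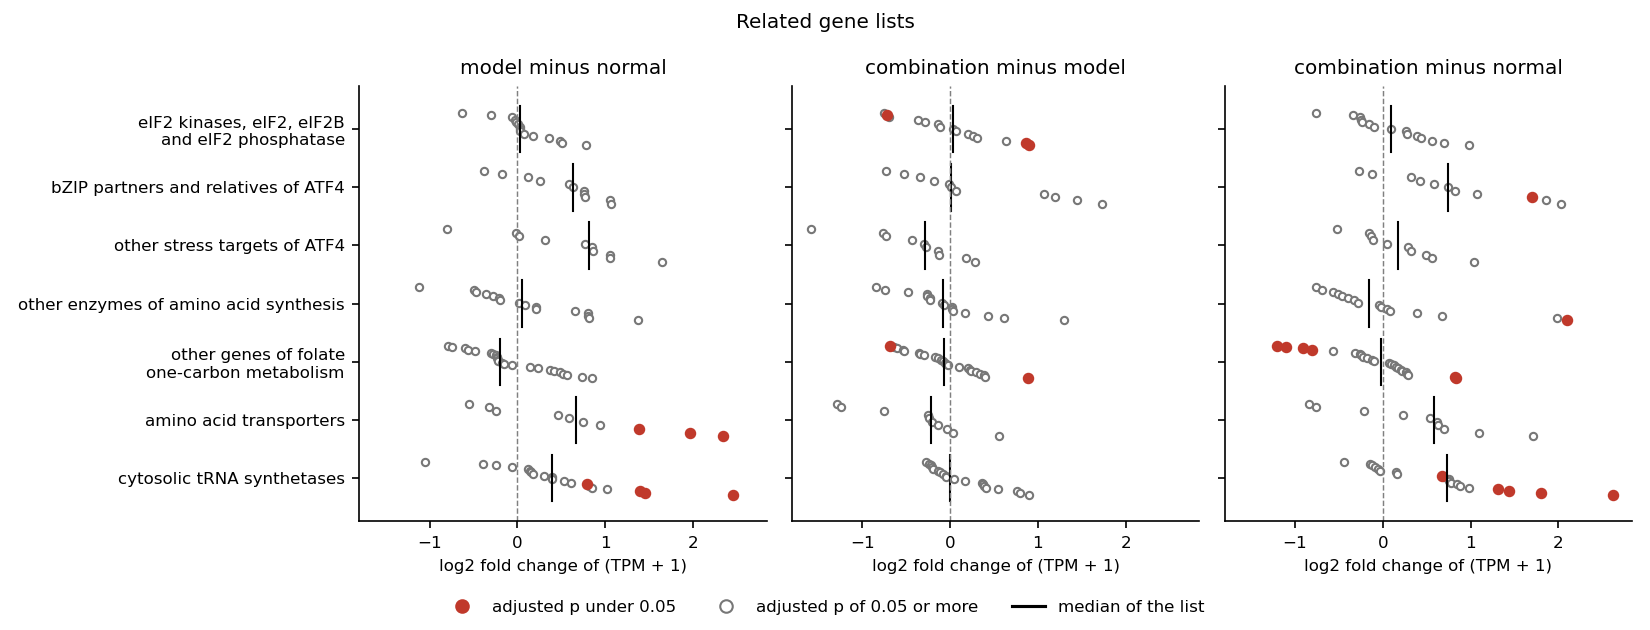
Log2 fold change of (TPM + 1) of each tested gene of the 7 related lists (points) in the 3 comparisons, with the list median as a vertical bar. Filled points have an adjusted p under 0.05. Filled points among transporters appear only in model minus normal, and among synthetases in both comparisons with normal.

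The genes most like the 3 that passed were sought among 7134 genes that averaged 5 TPM or more and had a gene symbol, leaving out unnamed loci, clone and placeholder names, several small RNA names and the 10 genes themselves, by the root mean square difference of log2(TPM + 1) over the 9 libraries, each gene centred on its own mean. For Trib3 they were Ctdp1 (0.195), Chst2 (0.216) and Maff (0.228), against a root mean square of 0.951 of Trib3 about its own mean. For Chac1 they were Cacnb1 (0.200), Scarb1 (0.227) and Cars (0.338), against 1.08. For Phgdh they were Ppp4r3b (0.123), Utp4 (0.129) and Il18r1 (0.129), against 0.411. The 9 libraries that define these likenesses are those of the comparisons.

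Markers of other cells and immediate early genes were read as summed TPM, and their counts past the threshold are from the same limma fit. The 12 listed immediate early genes (11 tested, 1 rose in model against normal), which stimulation or handling induces, summed to 4239, 3550 and 3305 TPM in the combination replicates, 7782, 4333 and 9296 TPM in the model replicates and 4060, 4279 and 4400 TPM in the normal replicates. Jun and Junb made up most of the sum in each model replicate, and the listed genes did not all follow it. Fos had 320.7, 24.1 and 69.3 TPM in the model replicates and 133.6, 199.0 and 246.4 TPM in the normal replicates. Zfp36 had 448.2 TPM in model replicate 3 alone. Within the model group, Atf4, Ddit3, Trib3, Asns and Psat1 had the same order of replicates as this sum. Atf5, Chac1, Phgdh, Shmt2 and Mthfd2 did not. Monocyte markers (6 of 7 listed found and tested; 1 rose against model and 2 against normal in combination libraries) summed to 267.4 to 537.1 TPM in combination, 59.6 to 159.1 TPM in model and 23.2 to 137.9 TPM in normal libraries, highest in the group where Phgdh was highest, and Lyz2 alone reached 452.7 TPM. Jdp2 and Ass1 also averaged highest in the combination group. Platelet markers (6 of 6 found, 2 tested; both rose in combination libraries against either group) summed to 65.5 to 109.1 TPM in combination, 15.6 to 30.6 TPM in model and 8.43 to 27.2 TPM in normal libraries.

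Erythroid markers (6 of 8 found, 4 tested; 1 rose in model against normal and 2 fell in combination against model) summed to 260.5 to 865.0 TPM in combination libraries, to 16210, 3359 and 2408 TPM in the model replicates and to 58.9 to 1122 TPM in normal libraries. Neutrophil markers (7 of 7 found, 2 tested; 1 fell in each CIA group against normal) summed to 4.77 to 8.39 TPM in combination, 0.426 to 8.70 TPM in model and 14.4 to 33.5 TPM in normal libraries. Cytotoxic and NK markers (9 of 9 found, 5 tested; 1 fell in model against normal and 1 rose in combination against either group) summed to 52.3 to 74.5 TPM in combination, 33.6 to 54.0 TPM in model and 57.5 to 97.2 TPM in normal libraries. The sums of B cell, plasma cell and class II and dendritic markers overlapped between all groups, at up to 27.5, 18.6 and 264.3 TPM, and no gene of these lists passed. T cell markers (10 of 11 found and tested; 1 fell in combination against normal) summed to 2781 to 3050 TPM in combination, 2387 to 3174 TPM in model and 3208 to 3977 TPM in normal libraries. No gene found in these lists was at 0 in all libraries, and the part of these cells and of handling in the results was not tested.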

How the data were processed

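Total RNA of blood CD4+ T cells was isolated with Trizol and made into libraries with a NEBNext Ultra kit, per the labels' protocols. Per the submitters' processing notes bcl2fastq, HISAT2 and rat build rn6 were used, with versions not given in the sources used here. Per the file headers StringTie 1.3.3b estimated coverage, FPKM and TPM of a merged transcript set, deposited as text attributes (other values) of 80092 transcripts, 39026 of them assembled. Per the file headers the combination libraries ran under other sample names than in the labels, which were used. No counts or read length were given, so no counting interval was derived.

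Transcript TPM was summed per gene: transcripts with its name plus assembled transcripts of loci with that name alone. In 844 loci with several names, 5648 assembled transcripts (4.275% of TPM) stayed unassigned. Genes that averaged 1 TPM or more (14252 of 28632 above 0) were tested on log2(TPM + 1), which understates changes of low genes, with limma 3.58.1 in R 4.3.3: 1 coefficient per group, all 9 libraries, a prior variance that follows the mean level (residual degrees of freedom 6, prior 3.2142), Benjamini-Hochberg adjustment over all genes, threshold 0.05. The code of the fit was checked on simulated data with independent noise for each gene. That check had no variation shared by a whole library, so it does not speak of how firm the calls are. Python 3.11.15, pandas 2.3.3, numpy 2.4.6 and matplotlib 3.10.9 did the rest.

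All 10 members are named, and from each list up to 4 genes past the threshold with the largest change, else the 2 of smallest p; part of these is printed. Members, lists and rules were chosen with earlier results of these data known. The settings varied were the pseudocount (0.1 or 5), the filter (none, or averages of 5 TPM or more), the unit (FPKM), the scaling (median ratios, with factors of 0.895 to 1.156, or removal of ribosomal protein, mitochondrial and haemoglobin genes), reference transcripts only, assignment by exon overlap, only the 2 groups compared, no trend, array weights, a replicate block and omission of each library.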

Additional observations from a re-analysis of the deposited data

How the results depend on the processing

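Genes past the threshold in model minus normal numbered 572, and 83 with no filter, 1061 with FPKM, 1297 with median-ratio scaling, 1049 with ribosomal protein, mitochondrial and haemoglobin genes removed, 168 with reference transcripts only, 71 with only the 2 groups compared, 2406 with array weights and 18 to 2682 with a library left out. In combination minus model they numbered 592, and in that order of settings 257, 1306, 1564, 1376, 138, 28, 1519 and 42 to 1212, with 388 at a mean of at least 5 TPM. In combination minus normal they numbered 516, and likewise 188, 1181, 1416, 1242, 88, 1235, 3653 and 23 to 1490, with 311 at a mean of at least 5 TPM. The share of calls that were higher was 52.0% in combination minus model, but 38.0% with median-ratio scaling and 65.4% with ribosomal protein, mitochondrial and haemoglobin genes removed, which also moved the median of all genes to 0.126. In combination minus normal it was 55.8%, and 42.2% with median-ratio scaling.

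Of the 10 genes, 2 passed in model minus normal, and 3 with a pseudocount of 0.1, FPKM, median-ratio scaling, assignment by exon overlap or removal of ribosomal protein, mitochondrial and haemoglobin genes, 1 with no filter or reference transcripts only, 0 with only the 2 groups compared, 5 with array weights and 0 to 5 with a library left out. In combination minus model 1 passed, and 0 with no filter or only the 2 groups compared, 2 with FPKM, median-ratio scaling, array weights or with ribosomal protein, mitochondrial and haemoglobin genes removed, and 0 to 2 with a library left out. In combination minus normal 2 passed, and 3 with FPKM, median-ratio scaling or the same removal of genes, 1 with a pseudocount of 5, no filter or a mean of at least 5 TPM, 0 with reference transcripts only, 5 with array weights (4 rises and 1 fall, that of Atf4) and 0 to 4 with a library left out. Only 9 of the 10 genes were tested in 2 of these settings. At a mean of at least 5 TPM Chac1 was filtered out rather than tested, and with reference transcripts only Mthfd2 was.

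The labels do not say that equal replicate numbers pair the libraries. Residual correlations between equal numbers were -0.12 to 0.066, and 2 of 9 libraries correlated best with their own number, so no strong pairing was seen. With 3 libraries in each group this cannot settle whether a weaker one exists. With the replicate block 87, 12 and 21 genes passed in model minus normal, combination minus model and combination minus normal, and 1, 0 and 0 of the 10.

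Directions turned only for fold changes that did not pass. Atf4 in model minus normal ranged from -0.16 to 0.049 over the libraries left out, above 0 without model replicate 1 (0.028) or 2 (0.049) or normal replicate 1 (0.0076). Asns in combination minus model was -0.0050 with a pseudocount of 5, -0.056 with median-ratio scaling, -0.016 with reference transcripts only and -0.048 with array weights, and ranged from -0.25 to 0.20 over the libraries left out, below 0 without combination replicate 1 or 2 (-0.13 and -0.030) or model replicate 2 (-0.25). In combination minus normal, Atf5 was 0.029 with array weights and ranged from -0.15 to 0.13, above 0 without combination replicate 3 (0.13) or normal replicate 2 (0.060). Shmt2 ranged from -0.11 to 0.11 there, above 0 without combination replicate 2 (0.070) or normal replicate 2 (0.11). Of 654 recomputed fold changes of the 10 genes, 569 kept direction and side of the threshold, and most of these had not passed at the main settings. Calls were lost in 43 and gained in 27, and 15 turned direction. With a library left out, the model calls against normal held in 6 of 9 fits for Trib3 and 3 of 9 for Chac1. The combination calls against normal held in 2 of 9 for Chac1 and 4 of 9 for Phgdh. The Trib3 fall against model held in 1 of 9. Under the other settings, in this order, they held in 12 of 13, 8 of 12, 8 of 12, 11 of 13 and 10 of 13. The cause of these shifts was not tested. No counts were given, so the number of reads behind low levels such as those of Chac1 in normal libraries is unknown. Their depth was low: exon 3 of Chac1 had a mean depth per base per aligned gigabase of 0.340, 0.219 and 0.204 in normal replicates 1, 2 and 3.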
